A study of Mus musculus with 6 samples.

Results

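Gm26920 and the 9 zinc finger genes around it on mouse chromosome 7, near 30 Mb, were examined in the medial prefrontal cortex (mPFC) of *Shank3* transgenic (TG) and wild-type (WT) mice. The 10 genes were taken from the 18254 genes of the deposited table by their symbols, namely Gm26920, Zfp14, Zfp82, Zfp566, Zfp260, Zfp382, Zfp146, Zfp420, Zfp568 and Zfp74. Gm26920 was selected on its own TG and WT values in these libraries, and the other 9 for their place beside it. Values of the 10 genes between TG and WT are therefore given as a description, with no test. All 10 passed the filter used for the fits across genes, a mean of at least 5 normalized read counts over the 6 libraries, and Gm26920 passed it through its WT libraries alone.

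The TG mice carried an enhanced green fluorescent protein (EGFP)-*Shank3* transgene on a C57BL/6J background and overexpress Shank3, a scaffold protein of the excitatory postsynaptic density. The WT mice were their littermates without the transgene, and all mice were males of 10 to 12 weeks. There were 3 TG and 3 WT libraries. The mPFC of 2 mice of a genotype was combined for each library, so that a replicate is a pool. The purpose of the comparison was to find which transcripts differ in the mPFC when Shank3 is in excess.

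Library totals ran from 28363967 to 29447717 normalized read counts. *Shank3* itself lay between 16310 and 19003.5 normalized read counts in TG and between 6791 and 8374 in WT, a log2 difference of 1.18 (SE 0.10, n = 3 per genotype; limma adjusted p = 0.0643, and 0.000437 with the library number as a block). The libraries numbered 3 stood apart from those numbered 1 and 2 in both genotypes. Named genes called in that contrast are also given without TG-3 or WT-3. Defining markers of cortical excitatory neurons, 5 of 5, were present in every library at a summed level of 152957 to 183749. The 3 oligodendrocyte markers used (Mbp, Mog and Mag) summed to 33674 to 47667 in TG and 47239 to 58776 in WT, so that the genotypes overlapped in TG-2 and WT-3 alone, and the sum was lower in TG for each of the 3 library numbers. The 4 leptomeningeal markers summed to 2510 to 3046 in TG and 2140 to 2390 in WT, with no overlap. The 4 olfactory bulb markers summed to 1425 in TG-2 and to between 161 and 355 in the others, and the 4 choroid plexus markers to 555 in TG-3 and to between 88.8 and 223 in the others. The part of these markers in the values below was not tested, and fewer cells of a type and less RNA per cell cannot be told apart in bulk tissue.

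Most genes of this kind encode KRAB zinc finger proteins, the largest family of transcription factors in mammals. Each zinc finger of the C2H2 type reads a few bases of DNA, and arrays of fingers give each protein its own target sequence. The KRAB domain binds the corepressor Trim28 (KAP1), which brings histone methylation and heterochromatin proteins to the site and silences it, retrotransposons being the best known targets. The genes arose by tandem duplication, so that they sit in clusters in which neighbours resemble each other.

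Gm26920 (ENSMUSG00000058447) lies at chr7:30056034-30090410 on the minus strand of GRCm38. Its only annotated transcript, of 9 exons and 2374 bases, joins the first 3 exons of Zfp566 to exons 2 to 7 of Zfp82, the next gene downstream. It is thus an annotated readthrough across both genes. Of its exonic bases, 310 (13.1%) lie in Zfp566 and 2064 (86.9%) in Zfp82, and 0 lie outside both. What sets it apart is the junction across an intron of 8951 bases between its exons 3 and 4. That junction and the one that Zfp566 makes from the same donor exon are shown because a read across either can tell Gm26920 from Zfp566. The junction from exon 1 to exon 2 of Zfp82, which Gm26920 lacks, is not shown. Lower case letters are the last 15 bases of the shared exon 3 and capitals the first 15 bases of the next exon, 5′ to 3′ on the transcribed strand.
Gm26920, exon 3 to exon 4 (exon 2 of Zfp82): acctgctctcaatggGCTGGACAAGGCTCC
Zfp566, exon 3 to exon 4: acctgctctcaatggTCCTGGAGTCAAGAT
Each of these 30-base runs was found in 1 annotated transcript. Of the 2344 31-base words in the Gm26920 transcript, 28 (1.20%) occurred in no other gene, and of the 2274 words as long as a read, 98 (4.31%) did. The same shares for 31-base words were 66.4% for Zfp82 and 83.0% for Zfp566, and between 94.4% and 99.9% for the other 7 genes. Gm26920 was therefore the member with the least sequence of its own.

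**Figure D1:**
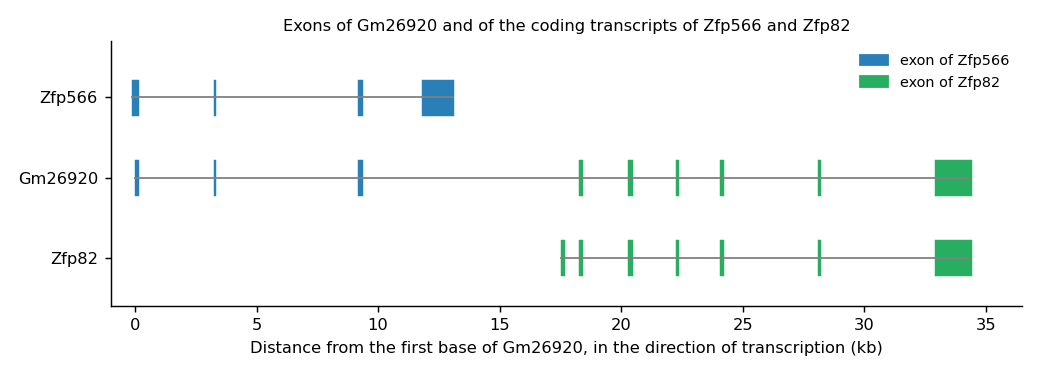
Exons of Gm26920 and of 1 coding transcript each of Zfp566 and Zfp82, drawn to scale against the distance in kb from the first base of Gm26920 in the direction of transcription. All 9 exons of Gm26920 stand above or below an exon of Zfp566 (blue) or Zfp82 (green). The junction across the intron of 8951 bases between them is what neither gene has. Exon 4 of Zfp566 and exon 1 of Zfp82 lie inside that intron.

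The annotation gives the transcript the class of nonsense-mediated decay, the pathway that degrades mRNAs whose stop codon lies well before the last exon junction. Its annotated reading frame has 56 residues, of which the first 45 are those of Zfp566 and the other 11 are not. The stop codon lies in exon 4, 543 bases and 5 junctions before the end of the last intron. A search for the C2H2 spacing found 0 fingers in this frame. The whole coding sequence of the main Zfp82 transcript follows in the same RNA from base 663.

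Gm26920 was listed at 0 in TG-1, TG-2 and TG-3, and at 10.3 normalized read counts in WT-1, 20.1 in WT-2 and 18.1 in WT-3. Its estimate was thus 0 in every TG library and above 0 in every WT library. Of the 18254 genes of the table it was the only gene listed at 0 in every TG library and at 10 or more in every WT library, and 0 genes showed the reverse. Gm26920 was chosen on these values, and the cut of 10 lies just under its lowest WT value, so nothing is read from this count. Since a value of exactly 0 can be the outcome of an estimate in which all fragments were given to overlapping genes, no fold change is given for it.

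Zfp82 (chr7:30054489-30072900, minus strand), a KRAB zinc finger gene whose main protein of 530 residues holds 12 C2H2 fingers, differed in the other direction. It had 127, 125 and 135 normalized read counts in TG-1 to TG-3 and 117, 99.9 and 112 in WT-1 to WT-3. Every TG library lay above every WT library. The mean was 129 ± 5.63 in TG and 110 ± 8.87 in WT (SD, n = 3 each), a log2 difference of 0.23 (SE 0.13). Among all 16714 genes tested, 6.02% had TG and WT libraries that did not overlap in either direction, and among the 10 genes there were 2, Gm26920 and Zfp82. The contrast was the one on which Gm26920 was chosen, and nothing is read from that share.

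The excess of Zfp82 in TG was of the size of Gm26920 in WT. Zfp82 exceeded its WT mean by 19.2 normalized read counts in TG (SE 6.07), against WT levels of Gm26920 of 10.3 to 20.1. Within the libraries that carry the same number, Zfp82 was higher in TG than in WT by 9.99, 24.7 and 22.8, where Gm26920 in the WT library of that number was 10.3, 20.1 and 18.1. The 3 WT libraries also ran in opposite order for both genes, with Zfp82 lowest and Gm26920 highest in WT-2, and Zfp82 highest and Gm26920 lowest in WT-1.

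Added together, Gm26920 and Zfp82 gave 127, 125 and 135 normalized read counts in TG-1 to TG-3 and 127, 120 and 131 in WT-1 to WT-3. The genotypes overlapped in this sum. Its mean was 129 ± 5.63 in TG and 126 ± 5.47 in WT (SD, n = 3 each), a difference of 3.00 (SE 4.53), or 2.38% of the WT mean. Gm26920 was 8.11% of the sum in WT-1, 16.7% in WT-2 and 13.9% in WT-3. Gm26920 and Zfp82 were each separated by genotype and their sum was not. Because Gm26920 was 0 in TG, adding it raises WT alone, which by itself narrows the difference of a gene higher in TG. These are the values on which Gm26920 was chosen, and whether the WT value of Gm26920 stands for readthrough RNA or for fragments of Zfp82 was not tested.

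Zfp566 (chr7:30077337-30090527, minus strand), the upstream partner, is a short KRAB zinc finger gene with 7 fingers in 386 residues. It had 105, 134 and 89.8 normalized read counts in TG-1 to TG-3 and 104, 112 and 133 in WT-1 to WT-3. The genotypes overlapped, and the lowest value was in TG-3 and the highest in TG-2. The log2 difference was -0.10 (SE 0.19). TG minus WT was 1.26 and 22.3 in the libraries numbered 1 and 2 and -43.4 in those numbered 3. Adding Gm26920 to Zfp566 gave a difference of -22.8 (SE 17.0), with overlapping genotypes as for Zfp566 alone. All 3 genes together gave 239 ± 17.9 in TG and 242 ± 18.6 in WT (SD, n = 3 each), a difference of -3.61 (SE 14.9). Inside the span the annotation also has the processed pseudogene Gm44872 on the plus strand, which shares 0 exonic bases with Gm26920 and was not analysed here.

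**Figure D2:**
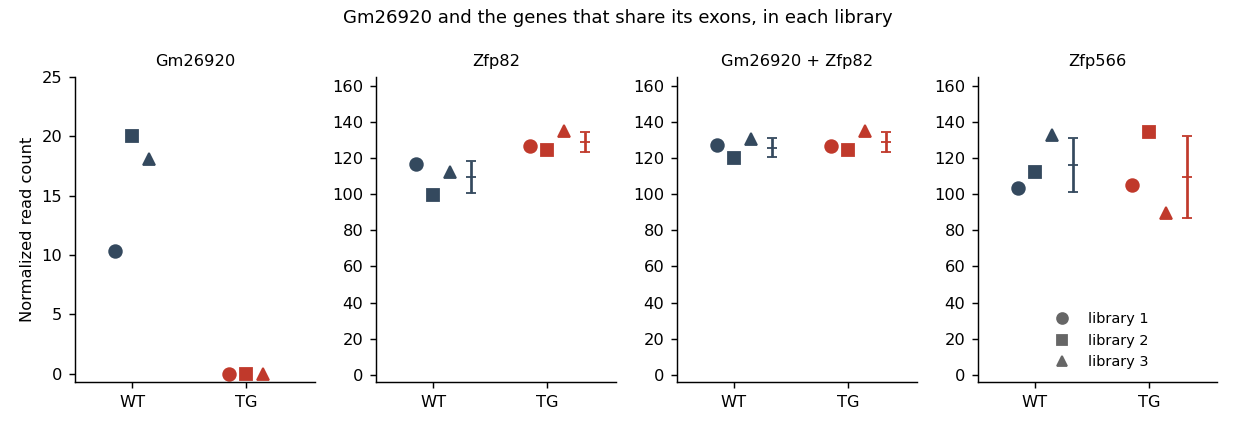
Normalized read count of Gm26920, Zfp82, their sum and Zfp566 in each library, WT in grey-blue and TG in red, with the library number as the marker shape and the mean ± SD (n = 3) beside the points of all but Gm26920. Zfp82 is separated by genotype at 125 to 135 against 99.9 to 117, and the sum with Gm26920 is not, at 125 to 135 against 120 to 131.

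Other genes whose exons lie almost wholly in exons of their neighbours were counted after the values had been seen. Besides Gm26920, 22 genes with a mean of 5 to 50 normalized read counts had at least 95% of their exonic bases in exons of other genes on the same strand, and 13 of them (59.1%) were at 0 in at least 1 library and at 10 or more in another. Among the 3230 remaining genes of that range the same was true of 121 (3.75%). The median of the mean levels was 11.2 in the former and 16.3 in the latter, and neither the part of the level nor that of the shared exons in the zeros was tested. In Gm26920 the zeros fell in the 3 TG libraries, whereas in Gm44503, for example, they fell in both libraries numbered 1 and both numbered 2, and 19.5 and 18.5 normalized read counts stood in TG-3 and WT-3.

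The genes whose centred log2 profile over the 6 libraries was nearest to Gm26920, by the root mean square difference, were Tmem212 (1.21), Gm5796 (1.23), Gm3298 (1.25), Gm15710 (1.31) and Capn11 (1.33). None lay on chromosome 7, and 0.0% of their exonic bases were shared with another gene on the strand. Each had at least 1 TG library above 0, where Gm26920 had none. Tmem212, a membrane protein gene, had 29.8 normalized read counts in WT-3 against 1.88 and 3.84 in the other WT libraries. Gm5796 and Gm3298 belong to a group of near-identical genes on chromosome 14, so that their values are uncertain.

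The other 7 genes share no exon with Gm26920, and in none of them were TG and WT libraries separated. Their log2 differences between TG and WT ran from -0.24 to 0.08, with a median of -0.10, and 5 were below 0. Over all 16714 genes the median was -0.00 and the middle of the distribution lay between -0.08 and 0.06. With SEs of 0.11 to 0.22 from the fit on genotype alone, differences of this size were not resolved from the spread between pools. In the fit across all genes with limma, 0 of 16714 genes (0.0%) passed an adjusted p of 0.05. An unadjusted p under 0.05 was found for 336, less than a share of 0.05, so the fit gave fewer low p-values than chance alone would. With the library number as a block, 833 had an unadjusted p under 0.05 and 1 passed, *Shank3*.

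On the minus strand just downstream of Zfp82, Zfp14 (chr7:30036359-30051380; 13 fingers) had 103, 124 and 144 normalized read counts in TG-1 to TG-3 and 158, 134 and 144 in WT-1 to WT-3. It was lowest in TG-1 and highest in WT-1, and its log2 difference of -0.24 (SE 0.16) was the most negative of the 7 with all libraries. With libraries left out it lay between -0.37 and -0.12. Without TG-1 it was -0.12, and Zfp146 was then lower at -0.20. Zfp568 (chr7:29983955-30028282, plus strand; 11 fingers), known for silencing a placental transcript of Igf2 in the embryo, had 112 to 139 in TG and 120 to 129 in WT, a log2 difference of 0.03 (SE 0.14). Zfp74 (chr7:29930815-29954089, minus strand; 18 fingers) had 480 to 493 in TG and 437 to 563 in WT, with a log2 difference of -0.05 (SE 0.11). Its TG libraries lay within the range of its WT libraries.

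Zfp420 (chr7:29859979-29877292, plus strand), also called Apak and known as a repressor of p53-dependent apoptosis genes, has the longest array, with 19 fingers. It had 393, 461 and 445 normalized read counts in TG-1 to TG-3 and 481, 495 and 420 in WT-1 to WT-3, a log2 difference of -0.10 (SE 0.11). The genotypes overlapped, and the lowest library was TG-1.

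Upstream of Zfp566, Zfp260 (chr7:30094777-30107622, plus strand) encodes a protein of 407 residues with 12 fingers, known as a regulator of cardiac genes that responds to phenylephrine. It had 1510, 1658 and 2243 normalized read counts in TG-1 to TG-3 and 1503, 1902 and 2643 in WT-1 to WT-3. The log2 difference between the genotypes was -0.14 (SE 0.22). Zfp382 (chr7:30121942-30134950, plus strand; 9 fingers) had 202, 247 and 266 in TG and 203, 285 and 193 in WT, a log2 difference of 0.08 (SE 0.18). Zfp146 (chr7:30161269-30169750, minus strand), whose protein of 292 residues is almost wholly made of its 10 fingers, had 827, 811 and 647 in TG and 786, 971 and 760 in WT, a log2 difference of -0.14 (SE 0.14). In all 3 genes the TG and WT values were interleaved.

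**Figure D3:**
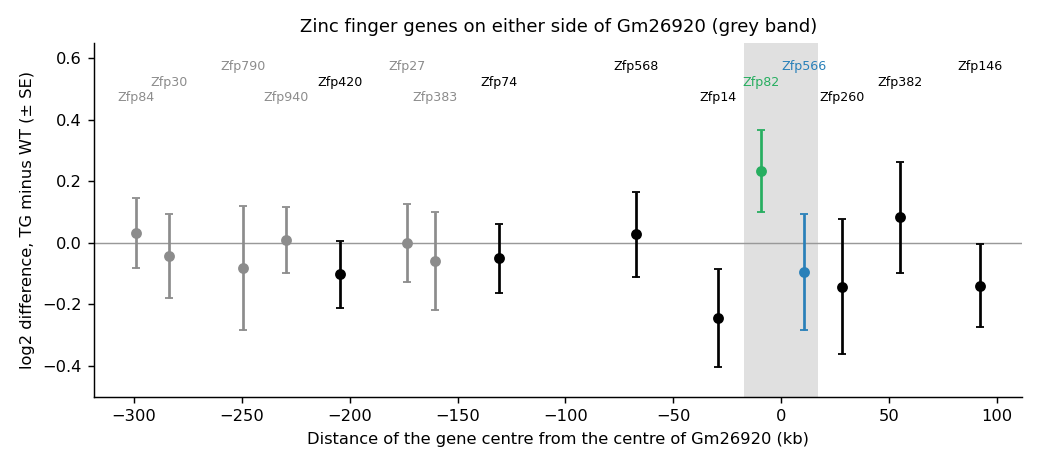
log2 difference (TG minus WT, points) with its SE (bars, n = 3 per genotype) for the 9 genes other than Gm26920 (black, green and blue) and for 6 other zinc finger genes within 1 Mb (grey), against the distance of the gene centre from the centre of Gm26920 in kb, with the span of Gm26920 shaded. Zfp82, inside the span, stands at 0.23, and the 7 genes that share no exon with Gm26920 lie between -0.24 and 0.08.

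The 6 other zinc finger genes within 1 Mb, Zfp84, Zfp30, Zfp790, Zfp940, Zfp27 and Zfp383, all passed the filter, and 0 of 6 had separated genotypes. Their log2 differences ran from -0.08 to 0.03 with a median of -0.02. The 61 tested genes within 1 Mb without a zinc finger symbol had a median of 0.01, and in 2 of them, Upk1a and Dmkn, every TG library lay above every WT library. Over the whole of chromosome 7, 82 zinc finger genes were tested besides the 10, with a median of -0.02. In Zfp428 every TG library lay above every WT library, and in Zfp61, Zfp94 and Zfp536 below. On the other chromosomes 289 were tested, with a median of -0.03, and in 7 of them every TG library lay below every WT library and in 1, Zfp988, above. With the 10 members left out, the shares with separated genotypes were 0.0% of the zinc finger genes within 1 Mb and 3.28% of the other genes there. They were 4.88% of the zinc finger genes on chromosome 7 and 2.77% of those on the others, all below the 6.02% of all tested genes. The lists were chosen with results of these data known.

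The machinery with which KRAB zinc finger proteins silence DNA was measured for 26 of 26 listed genes. None was called between TG and WT (0 of 26), where 0 of all 16714 tested genes were, so nothing is read from that count. There were 9 differences above 0 and 17 below, and the median was -0.04. The most abundant were Chd3, a remodeller of the NuRD complex, at 17680 ± 960 normalized read counts in TG and 16858 ± 1321 in WT, Atrx, a heterochromatin remodeller, at 7044 ± 262 and 7430 ± 1030, and Chd4, also of NuRD, at 5903 ± 166 and 6067 ± 166 (SD, n = 3 each). Trim28, the corepressor itself, had a log2 difference of 0.01 (SE 0.09).

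Levels of the 10 genes were compared per kb of exonic sequence, the union of all annotated exons, in normalized read counts. In WT the order ran from Zfp260 at 348 per kb through Zfp146 at 257, Zfp382 at 98.7, Zfp74 at 90.2, Zfp420 at 80.9, Zfp566 at 67.3, Zfp14 at 41.9, Zfp82 at 18.2 and Zfp568 at 16.9 to Gm26920, whose 3 WT libraries lay between 4.35 and 8.45. The 2 leading genes overlapped each other across libraries and lay above all others. Zfp382, Zfp74, Zfp420 and Zfp566 overlapped each with the next. Zfp14 stood between its neighbours without overlap in WT, and Zfp82 and Zfp568 overlapped. Zfp82 has long alternative exons, and the union of 6041 bases lowers its value per kb.

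**Figure D4:**
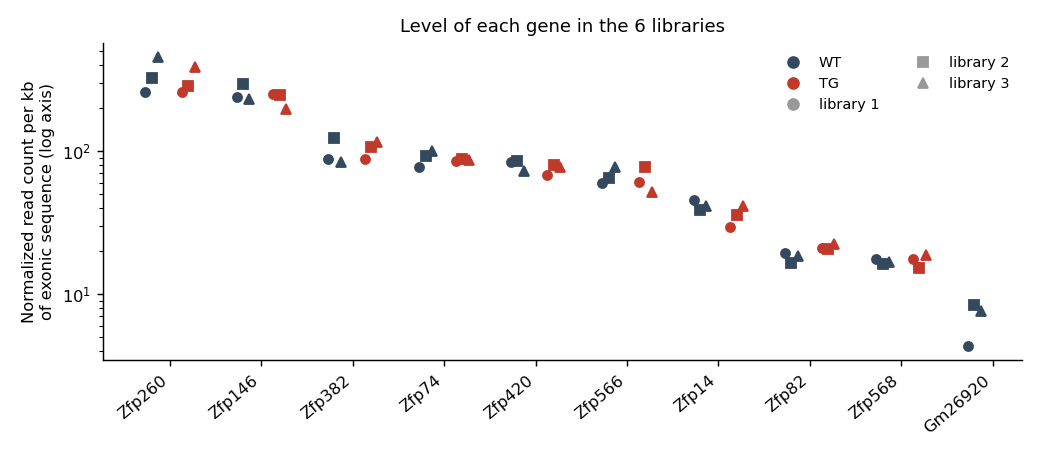
Normalized read count per kb of exonic sequence (log axis) of the 10 genes in each library, WT in grey-blue and TG in red, with the library number as the marker shape. The genes span from 456 per kb for Zfp260 in WT-3 to 4.35 for Gm26920 in WT-1, and the TG libraries of Gm26920, at 0, cannot be drawn on this axis.

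The members were then compared between the libraries numbered 3 and those numbered 1 and 2, with the genotype in the model, since the choice of the genes did not use this contrast. In limma, 2344 of 16714 genes (14.0%) passed an adjusted p of 0.05, 1281 higher and 1063 lower in the libraries numbered 3. Of the 9 members with values above 0 in both genotypes 1 passed, Zfp260. Its mean was 2443 normalized read counts in the libraries numbered 3 and 1643 in the others, a log2 difference of 0.57 (SE 0.10, limma adjusted p = 0.00718), and both libraries numbered 3 lay above the other 4. Leaving out TG-3 or WT-3 leaves 1 library numbered 3, which is then assumed to vary like the others. Without TG-3 its limma adjusted p was 0.0694 and without WT-3 it was 0.180, with log2 differences of 0.64 and 0.50. What distinguishes the libraries numbered 3 is not given in the labels.

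Zfp146, at 704 against 849 normalized read counts, was below the other 4 libraries in both, but its log2 difference of -0.27 (SE 0.10) did not pass (limma adjusted p = 0.0972). Without WT-1 it did, at -0.35 and a limma adjusted p of 0.0179. Of the others, 7 had limma adjusted p-values of 0.463 to 0.934, among them Zfp82 with a log2 difference of 0.08 (SE 0.14). Gm26920, at 0 in all 3 TG libraries, gives no test in this contrast beyond its WT values. Excitatory markers summed to 176516 to 183749 in the libraries numbered 3 and 152957 to 169692 in the others, and endothelial markers to 5645 to 6178 against 3951 to 4765. Microglial markers summed to 4294 to 4467 against 5185 to 6145, and the lists for inhibitory neurons and astrocytes were also lower without overlap. Their part in the Zfp260 value was not tested.

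Of the 6 other zinc finger genes within 1 Mb, 1 passed in this contrast, Zfp790, which fell by 0.49 (limma adjusted p = 0.0245). Of the 61 other genes within 1 Mb 5 passed (8.20%), of the 82 zinc finger genes on chromosome 7 besides the members 5 passed (6.10%), and of the 289 on other chromosomes 34 passed (11.8%), 12 higher and 22 lower. Among the 26 cofactors 5 passed (19.2%), against 14.0% of all genes. Mphosph8, a reader of histone H3 lysine methylation in the HUSH complex, was higher by 0.57 (limma adjusted p = 0.0195). Hdac1, a histone deacetylase, was higher by 0.42 (limma adjusted p = 0.0191) and Cbx3, a heterochromatin protein, by 0.29 (limma adjusted p = 0.0492). Hdac2 fell by 0.32 (limma adjusted p = 0.0226) and Morc3 fell by 0.32 (limma adjusted p = 0.0411). Without TG-3 the log2 differences of these 5 were 0.71 for Mphosph8, 0.57 for Hdac1, 0.35 for Cbx3, -0.22 for Hdac2 and -0.18 for Morc3. Without WT-3 they were 0.43 for Mphosph8, 0.26 for Hdac1, 0.23 for Cbx3, -0.41 for Hdac2 and -0.46 for Morc3. All 5 kept their direction in both cases. The difference of Zfp790 was -0.49 in both, and it passed in neither (limma adjusted p = 0.184 and 0.242). Leaving out TG-3 or WT-3 leaves 1 library numbered 3. Fewer genes then passed in every list and among all tested genes, so the calls of the lists are not compared there.

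Whether the step between the libraries numbered 3 and the others differed between TG and WT was tested as an interaction, in which each genotype had 1 library numbered 3, so that a single library sets the value. In limma 5 of 16714 genes (0.0299%) passed, namely Rsc1a1, Gm9843, Gm14303, Rpl10a-ps1 and CR974586.6, and none of the 9 members other than Gm26920 did. All 5 were listed at 0 in TG-3 or in WT-3. The member with the smallest unadjusted p was Zfp566, which was lowest in TG-3 and, among WT libraries, highest in WT-3, with a difference of -0.70 on the log2 scale (SE 0.32, limma adjusted p = 1.00).

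**Figure D5:**
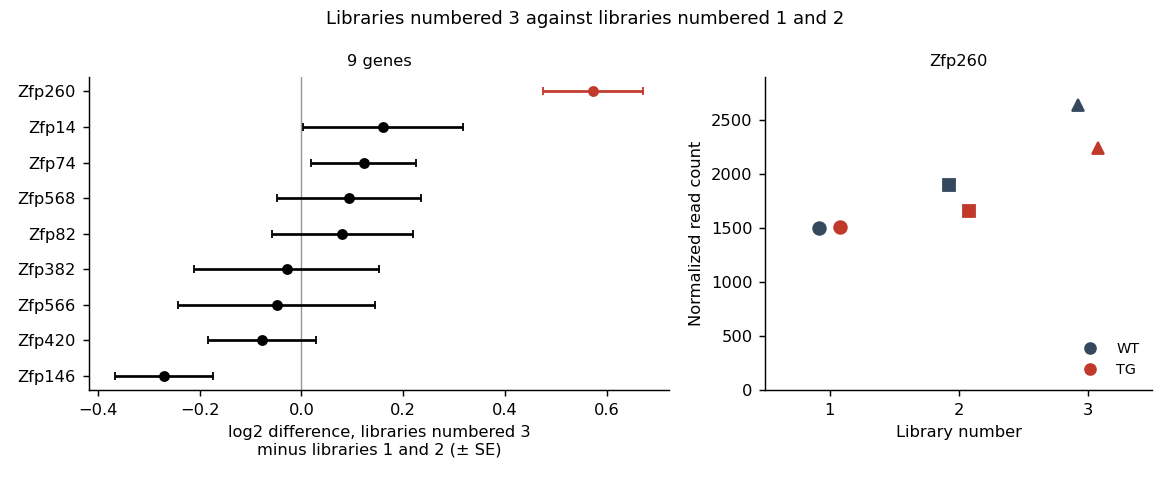
Left, log2 difference between the libraries numbered 3 and those numbered 1 and 2, with its SE, for the 9 genes other than Gm26920, in red where the limma adjusted p was under 0.05; right, normalized read count of Zfp260 in each library, WT in grey-blue and TG in red. Zfp260 stands at 0.57 on the left, and its libraries numbered 3 reach 2243 and 2643 against 1503 to 1902 in the others.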

How the data were processed

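RNA from the mPFC of 3 TG and 3 WT pools was sequenced as stranded paired-end reads. The authors estimated transcript abundance with Salmon 0.9.1 on GRCm38, summed it to genes with tximport and normalized it in DESeq2 1.19.11. The deposited signal is normalized read counts, which are not whole reads, so depth in reads was not recovered and no counting interval was given. An estimate of this kind divides fragments that match several transcripts, which bears on genes that share exons.

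Symbols, exons and overlaps came from GENCODE M21, in which 18231 of 18254 identifiers were found. The annotation release behind the deposited values is not given in the sources used here. Sequence words and junctions were read from the M21 transcripts. C2H2 fingers were counted as a spacing pattern in the translated transcript.

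Genes with a mean of at least 5 were fitted as log2(normalized read count + 1) in R 4.3.3 with limma 3.58.1 (trend, two-sided tests, Benjamini-Hochberg, threshold 0.05), so differences of low genes are understated. The genotype contrast held genotype alone, and the contrast of library numbers held genotype as a covariate. The fits were tested on simulated data in which 200 genes were changed. Between TG and WT, 0 of the 200 were called at a log2 change of 0.5, 103 at 1.0 and 166 at 2.0. In the contrast of library numbers the counts were 44, 129 and 175. A lack of calls between TG and WT thus says little of changes near 0.5. Deviations from genotype means correlated between same-numbered libraries at 0.30, 0.33 and 0.62, and at 0.27 and 0.23 between the libraries numbered 1 and 2 of opposite genotypes. Between a library numbered 3 and one numbered 1 or 2 of the opposite genotype they correlated at -0.39 to -0.44. The same-numbered values for 1 and 2 were thus close to those across these numbers, and the labels state no pairing. Since each same-numbered value was over 0.1, the library number was used as a block in an alternative fit alone. The members and lists were chosen with earlier results of these data known. The 10 members, the genes overlapping Gm26920, the 5 profiles nearest to it and the 3 most abundant cofactors and those past a test were named. Zinc finger genes within 1 Mb were to be named where TG and WT libraries did not overlap, and none was. Those 6 genes, Gm44503, Trim28 and the genes behind small counts were named outside the rule, after their values had been seen. A further oligodendrocyte marker is not reported here. No finding of the authors' own comparisons was used.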

Additional observations from a re-analysis of the deposited data

How the results depend on the processing

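For the 9 members other than Gm26920, the log2 difference between TG and WT moved by less than the spread between libraries under every alternative run, namely other pseudocounts, filters and scalings, the library number as a block and each library or both libraries numbered 3 left out. Zfp82 stayed above 0 (0.17 to 0.28), 3 others (Zfp14, Zfp146 and Zfp420) stayed below 0, and 5 changed sign, Zfp260, Zfp382, Zfp566, Zfp568 and Zfp74. The median over these 9 was -0.10 and lay between -0.15 and 0.0050 with libraries left out, changing sign without WT-3. Over all 10 members, with the fitted value of Gm26920, it lay between -0.16 and -0.0085, the upper end again without WT-3. The sum of Gm26920, Zfp82 and Zfp566 differed by -0.02 on the log2 scale and by -0.08 to 0.08 with libraries left out. The sum of Gm26920 and Zfp82 differed by 0.03, and by -0.00 to 0.06.

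The count of genes called between TG and WT was 0, and 1 with the same upper quartile, with the replicate block, with the robust option, without WT-3 and without both libraries numbered 3, an alternative chosen after the data had been seen. It was 26 with an empirical null. With libraries left out it was 0 to 1. *Shank3* had a log2 difference of 1.19 (limma adjusted p = 0.0453) with the same upper quartile, 1.18 (0.000437) with the replicate block and 1.09 to 1.24 with libraries left out, among which it passed without WT-3 and without both libraries numbered 3 (1.14). *Shank3* was the only gene whose call the block changed. The contrast of library numbers had 2344 calls and 222 to 2554 with libraries left out, with 1401 without TG-1, 507 without TG-3 and 222 without WT-3. The members called in it were 1, and 0 without TG-3 or WT-3 and 2 without WT-1, with 0 to 2 as the range. The cause of these changes was not tested beyond the loss of libraries. With 3 pools per genotype, differences such as those of the neighbouring genes lie within the spread.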
